A study of Mus musculus with 6 samples.

Results

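The transcripts described here encode the subunits of the mitochondrial oxidative phosphorylation system. They were followed in alveolar macrophages of Car4fl/fl mice with and without a Cre recombinase under the control of CD11c. Members were taken by gene name from the deposited count table: the Ndufa, Ndufb, Ndufc, Ndufs and Ndufv families of complex I, the Sdh genes of complex II, the Uqcr genes and Cyc1 of complex III, Cycs, the Cox4 to Cox8 families of complex IV, the Atp5 genes of complex V, and the mitochondrially encoded mRNA genes. Pseudogenes named with -ps and the assembly factors named Ndufaf were left out. This gave 101 of 46078 gene rows, 88 of them nuclear and 13 mitochondrial, under 100 symbols, since Uqcrc1 stands on 2 rows. The rule used names only, and no measured value. The rule also takes in Atp5sl, whose product is known as an assembly factor of complex I, which is kept apart from the subunits here. Ndufa4 and Ndufa4l2 are placed with complex IV, where the Ndufa4 protein resides.

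Alveolar macrophages, which reside in the airspaces, had been sorted from the lungs of untreated mice and their polyadenylated RNA sequenced, with 1 library per mouse. The 3 control mice were Car4fl/fl, with both alleles of the carbonic anhydrase 4 gene flanked by recombination sites. The 3 mice of the other group were Car4fl/fl-CD11cCre, with the same alleles and a Cre recombinase under the control of CD11c. CD11c is made by alveolar macrophages and by dendritic cells, and no group carried Cre without the floxed alleles, so an effect of Cre itself and one of Car4 deletion cannot be told apart. The labels state no age, sex or sequencing batch.

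Oxidative phosphorylation passes electrons from NADH through complex I, or from succinate through complex II, to coenzyme Q, and on through complex III, cytochrome c and complex IV to oxygen. Complexes I, III and IV pump protons out of the mitochondrial matrix, and complex V, the ATP synthase, lets them back in to make ATP. Most subunits are encoded in the nucleus and imported, and a small core set is encoded by mitochondrial DNA, which lacks any subunit of complex II. Alveolar macrophages live in an oxygen-rich, glucose-poor space and are known to depend on mitochondrial respiration.

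The libraries held between 53824475 and 65443314 counts. Values are CPM, counts scaled to library size, after TMM normalisation, and 3 counts correspond to 0.0465 to 0.0557 CPM, a floor that covers counting error only. Log2 fold changes are of Cre over control libraries, SE is its standard error, and each test was the two-sided quasi-likelihood test of edgeR with Benjamini-Hochberg adjustment over the 15147 genes that passed the filter on low counts. Car4 itself was at 499, 385 and 270.3 CPM in the controls and at 40.2, 46.9 and 36.2 CPM in the Cre libraries, with a log2 fold change of -3.23 (adjusted p 0.0047, edgeR). The 12 alveolar macrophage markers, which include Car4, were all detected and summed to 23739 to 27136 CPM in the controls and 28916 to 42497 CPM in the Cre libraries. The sum is mostly Chil3, and single markers went both ways: 5 had a fold change above 0 and 7 below, with 3 higher and 4 lower by unadjusted p (threshold 0.05). Markers of interstitial macrophages summed to 6.58 to 9.06 CPM and to 11.6 to 77.2 CPM in the same order. Of these 8 markers 5 had a fold change above 0 and 3 below, with 4 higher and 1 lower by the same unadjusted p. Sums of neutrophil markers (45.1 to 50.2 against 51.4 to 61.3 CPM) and airway epithelium markers (319 to 361 against 179 to 215 CPM) did not overlap either. The latter sum is nearly all Tppp3, and the secretory cell marker Scgb1a1 was at 6.46, 6.81 and 2.498 against 3.82, 4.86 and 9.60 CPM. The part of such cells in the values of the members was not tested. In sorted bulk RNA, a smaller share of cells of a type and less RNA per cell cannot be told apart.

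Of the 101 rows, 90 passed the filter, 83 nuclear and 7 mitochondrial, and 78 of these had at least 1000 counts in every library. The 11 that did not pass were Cox7b2, Cox8b, Cox8c, Ndufa4l2, the second row of Uqcrc1, and 6 mitochondrial genes described further on. None of these 11 rows had more than 10 counts in any library, and 6 of them were at 0 in all libraries.

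No member passed an adjusted p of 0.05 in edgeR, where 2 of 15147 genes, 0.0132%, did. At an unadjusted p under 0.05, 0 members were higher and 3 were lower in the Cre libraries: Cox6b2, mt-Nd2 and mt-Nd1. Over all tested genes these shares were 6.54% higher and 6.28% lower. All 3 Cre values exceeded all 3 control values for 1 member, mt-Co1, and were below them for 5, Cox6b2, Cox4i2, mt-Nd1, mt-Nd2 and mt-Nd4. These counts compare with 8.61% and 9.23% of all tested genes. Leaving out 1 library can add genes that separate but cannot remove any. Without control library 1 the Cre values lay above for 15 members, and without control library 2 or Cre library 1 or 3 for 2. They lay below for 10 members without control library 2 and for 15 without Cre library 2. With 5 libraries any gene separates more readily, and the share of all tested genes was not computed for them. DESeq2, which called 3.7% of tested genes, called 1 member, Cox6b2, as did edgeR without the filter on low counts, which called 1.9% of the genes it tested.

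The fold changes of the members were small and their intervals narrow. Of the 90 tested members 51 had a fold change above 0 and 39 below, with a median log2 fold change of 0.0088 against -0.0019 over all tested genes. The 95% interval of the fold change lay within 1.5-fold in either direction for 87 of the 90 members, and within 1.2-fold for 63. Among all tested genes these shares were 62.5% and 35.3%. The 3 members whose interval reached beyond 1.5-fold were Cox6b2, Cox4i2 and Cox6a2, each a tissue-restricted isoform of a complex IV subunit. The share for all tested genes includes many genes of lower counts, whose intervals are wider.

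**Figure D1:**
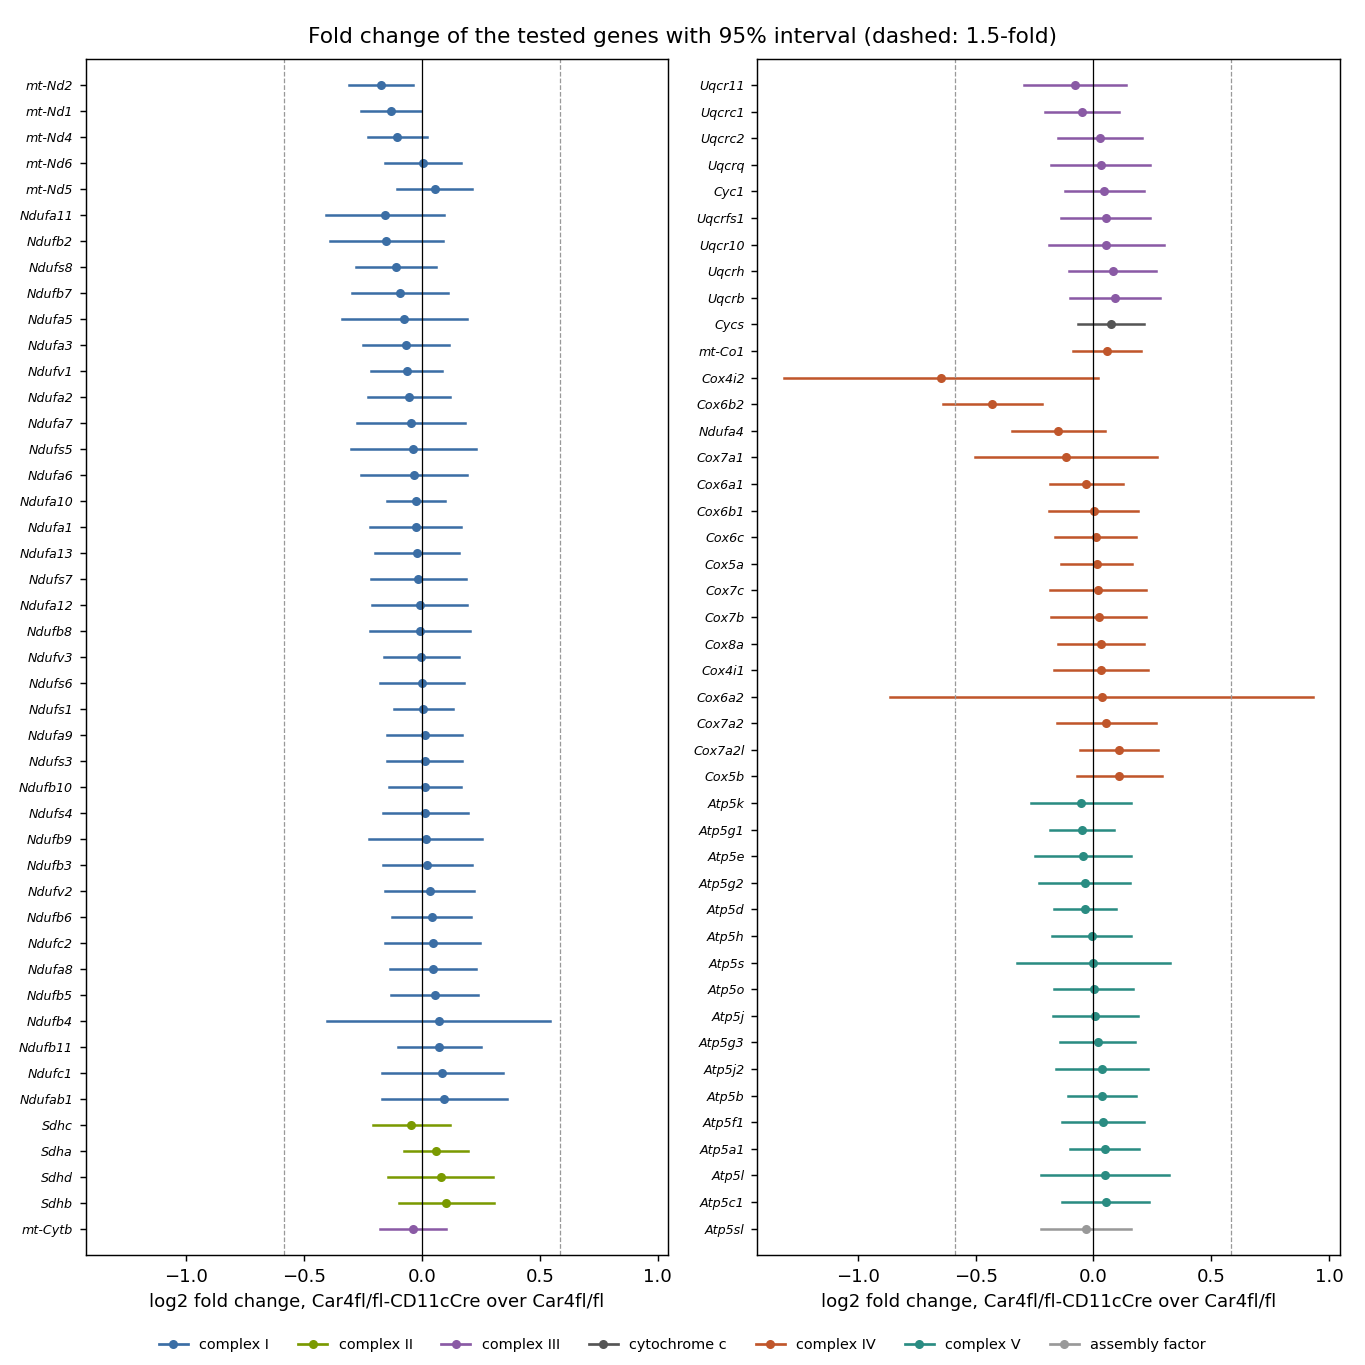
Log2 fold change of Car4fl/fl-CD11cCre over Car4fl/fl libraries for the 90 tested genes, 1 of them not drawn, coloured by complex, with the 95% interval from edgeR as a line and 1.5-fold in either direction dashed (3 libraries per group). All intervals drawn but those of Cox6b2, Cox4i2 and Cox6a2 lie between the dashed lines.

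Complex I, the NADH dehydrogenase, takes up the electrons of NADH. Its 36 nuclear members were all tested and had a median log2 fold change of -0.0047, with 16 above 0 and 20 below, from -0.16 to 0.095. No member passed an unadjusted p of 0.05 and none separated the groups. Ndufa1, a small membrane subunit encoded on the X chromosome, was at 39.6, 32.7 and 35.3 CPM in the controls and 32.7, 37.4 and 35.6 CPM in the Cre libraries. Its log2 fold change was -0.03, and the groups overlapped. Ndufs8, which holds iron-sulfur clusters of the electron path, had the smallest p of these 36.

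Ndufs8 was at 58.7, 49.8 and 52.5 CPM in the controls and 49.998, 52.4 and 46.9 CPM in the Cre libraries. The log2 fold change was -0.11, with an SE of 0.07 and an adjusted p of 0.614 (edgeR), and the groups overlapped. Ndufa11, an accessory subunit of the membrane arm, was at 33.2, 25.9 and 28.2 CPM against 24.0, 29.0 and 25.2 CPM (log2 fold change -0.16, adjusted p 0.619, edgeR). Ndufb2 was at 7.45, 6.88 and 7.28 CPM against 6.32, 6.07 and 7.09 CPM (log2 fold change -0.15, adjusted p 0.62, edgeR). In each of these genes at least 1 Cre library lay within the range of the controls.

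Complex II, succinate dehydrogenase, feeds electrons of succinate to coenzyme Q and also works in the citric acid cycle. Its 4 members had a median log2 fold change of 0.069, and 3 of 4 were above 0. Sdha, the flavoprotein that oxidises succinate, was at 325, 301 and 324 CPM in the controls and 327, 345 and 317 CPM in the Cre libraries. Sdhb, the iron-sulfur subunit, was at 102, 87.7 and 88.4 CPM against 91.9, 110 and 97.1 CPM. Its log2 fold change of 0.10 ± 0.09 (SE) was the highest of this complex, with an adjusted p of 0.697 (edgeR), and control library 1 lay above Cre libraries 1 and 3. The membrane anchors Sdhc and Sdhd had log2 fold changes of -0.04 and 0.08, and the groups overlapped in both.

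Complex III, the cytochrome bc1 complex, hands electrons from coenzyme Q to cytochrome c. Of its 10 nuclear rows 9 were tested, with a median log2 fold change of 0.047 and 7 of 9 above 0. Uqcrfs1, the Rieske iron-sulfur protein, was at 108, 91.6 and 93.4 CPM in the controls and 95.3, 110 and 98.2 CPM in the Cre libraries. Uqcrb, the member of this complex with the smallest p, was at 49.3, 40.9 and 46.0 CPM against 46.3, 52.5 and 46.3 CPM. The log2 fold change of 0.09 ± 0.08 (SE) had an adjusted p of 0.724 (edgeR), and control library 1 exceeded Cre libraries 1 and 3. Cyc1, cytochrome c1, was at 85.6 ± 6.14 against 88.4 ± 6.11 CPM (SD, n = 3). Cycs, the mobile carrier cytochrome c, was at 34.6, 31.6 and 34.2 CPM against 34.0, 37.1 and 34.6 CPM, with an interval of 0.955 to 1.16-fold.

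Complex V, the ATP synthase, had 16 tested members with a median log2 fold change of 0.0044, the narrowest spread of the 3 largest complexes, from -0.051 to 0.052. Atp5a1 and Atp5b encode the alpha and beta subunits that form the catalytic ring. Atp5a1 was at 736, 649 and 668 CPM in the controls and 711, 711 and 701 CPM in the Cre libraries. Atp5b was at 914, 823 and 833 CPM against 875, 902 and 861 CPM, with an interval of 0.929 to 1.13-fold. For both genes the highest control library lay above all 3 Cre libraries, and the others below. The member of the group with the smallest p, Atp5g1, had an adjusted p of 0.804 (edgeR). The assembly factor gene Atp5sl was at 20.8 ± 1.76 against 20.3 ± 1.07 CPM (SD, n = 3).

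Complex IV, cytochrome c oxidase, reduces oxygen to water. Several of its nuclear subunits exist as pairs of isoforms from separate genes, 1 broadly expressed and the other restricted to tissues such as heart and skeletal muscle, lung or testis. The 16 tested members had a median log2 fold change of 0.017, with 11 above 0. Broadly expressed forms did not separate the groups: Cox4i1 was at 325, 272 and 295 CPM in the controls and 290, 334 and 289 CPM in the Cre libraries, and Cox6a1 was at 161, 138 and 153 CPM against 149, 153 and 142 CPM. Cox5b, a peripheral subunit that binds zinc, was at 70.5, 59.2 and 63.3 CPM against 66.0, 74.6 and 67.5 CPM (log2 fold change 0.11, adjusted p 0.632, edgeR). In these 3 genes the ranges of the groups overlapped.

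Cox6b2, the isoform of subunit 6b known from testis, had the smallest p of all members. It was at 23.1, 19.3 and 19.3 CPM in the controls and 16.2, 14.8 and 14.8 CPM in the Cre libraries, 20.5 ± 2.20 against 15.3 ± 0.8 CPM (SD, n = 3). All 3 Cre libraries lay below all 3 controls, with control library 1 the highest of the 6. The log2 fold change amounted to -0.43 ± 0.09 (SE), or 0.743-fold with a 95% interval of 0.642 to 0.861, and the adjusted p was 0.157 (edgeR). Under the alternatives its log2 fold change lay between -0.48 and -0.34 and its adjusted p between 0.0062 and 0.468. It was called at an adjusted p of 0.0062 by DESeq2 and of 0.0314 by edgeR without the filter on low counts, and under no other alternative.

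The somatic isoform Cox6b1 is the other gene for this subunit, which faces the space between the mitochondrial membranes. It was at 117, 99.3 and 103 CPM in the controls and 101, 116 and 103 CPM in the Cre libraries, a log2 fold change of 0.00 with a 95% interval of 0.878 to 1.14-fold. The difference in fold change between Cox6b1 and Cox6b2 was not tested. The 2 coding sequences are shown because reads of these isoforms have to be told apart by their differing bases. They are from the principal transcripts of GENCODE M21 (GRCm38), from start to stop codon, 5′ to 3′. Capitals mark aligned bases that differ between the 2 sequences. Bases with no partner in the alignment are in lower case like identical ones, so lower case alone does not mean identity. Cox6b1 lies at chr7:30616861-30626151 and Cox6b2 at chr7:4751792-4753094, both on the minus strand.
Cox6b1: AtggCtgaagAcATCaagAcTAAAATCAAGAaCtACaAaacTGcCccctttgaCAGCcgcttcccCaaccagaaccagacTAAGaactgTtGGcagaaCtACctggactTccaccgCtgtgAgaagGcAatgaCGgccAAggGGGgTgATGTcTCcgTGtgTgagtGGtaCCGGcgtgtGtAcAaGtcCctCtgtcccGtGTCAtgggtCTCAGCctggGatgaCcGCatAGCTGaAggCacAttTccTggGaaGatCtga
Cox6b2: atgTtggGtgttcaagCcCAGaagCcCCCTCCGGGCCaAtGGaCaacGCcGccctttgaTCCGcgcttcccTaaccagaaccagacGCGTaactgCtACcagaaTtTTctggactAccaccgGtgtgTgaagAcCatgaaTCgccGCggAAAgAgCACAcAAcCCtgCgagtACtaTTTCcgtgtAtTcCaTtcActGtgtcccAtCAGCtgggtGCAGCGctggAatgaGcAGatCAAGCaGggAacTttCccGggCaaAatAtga
Over 260 aligned bases the identity was 60.8%, and the longest run of identical bases was 14. Neither gene had a near-identical copy, at least 98% identical over at least 150 bases, among the annotated transcripts.

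The other restricted isoforms were low. Cox4i2, the isoform of subunit 4 known from lung and smooth muscle, was at 0.614, 0.432 and 0.528 CPM in the controls and 0.287, 0.310 and 0.408 CPM in the Cre libraries. The groups did not overlap, and the log2 fold change of -0.65 ± 0.29 (SE) had an adjusted p of 0.402 (edgeR) and a 95% interval of 0.403 to 1.01-fold. The highest Cre library, 3, lay close to the lowest control library, 2. Cox6a2, the heart and muscle form of subunit 6a, was at 1.49, 1.13 and 0.457 CPM against 1.01, 1.15 and 1.00 CPM, so the controls alone covered the whole range. Cox7a1, the heart and muscle form of subunit 7a, was at 2.57, 2.28 and 2.64 CPM against 1.99, 2.65 and 2.26 CPM.

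Cox8b, another muscle form, stayed below 0.053 CPM in every library, Cox8c, a testis form, had no counts, and Cox7b2 had 2 counts in 1 library, Cre 2, and 0 in the others. Ndufa4l2, known as a hypoxia-induced relative of Ndufa4, was at 0.0831 to 0.106 CPM in the controls and 0.0845 to 0.186 CPM in the Cre libraries. Ndufa4 itself was at 93.2, 79.3 and 78.8 CPM against 79.1, 79.0 and 68.7 CPM (log2 fold change -0.15, adjusted p 0.538, edgeR), with Cre libraries 1 and 2 inside the range of the controls. All 7 cardiac and skeletal muscle markers examined were below 1 CPM in every library, with sums of 1.05 to 1.65 CPM in the controls and 0.79 to 1.19 CPM in the Cre libraries. The part of other cells in these low values, Cox4i2 included, was not tested. Cox7a2 and Cox7a2l, the latter a factor of respiratory supercomplexes, had log2 fold changes of 0.05 and 0.11 with overlapping groups.

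**Figure D2:**
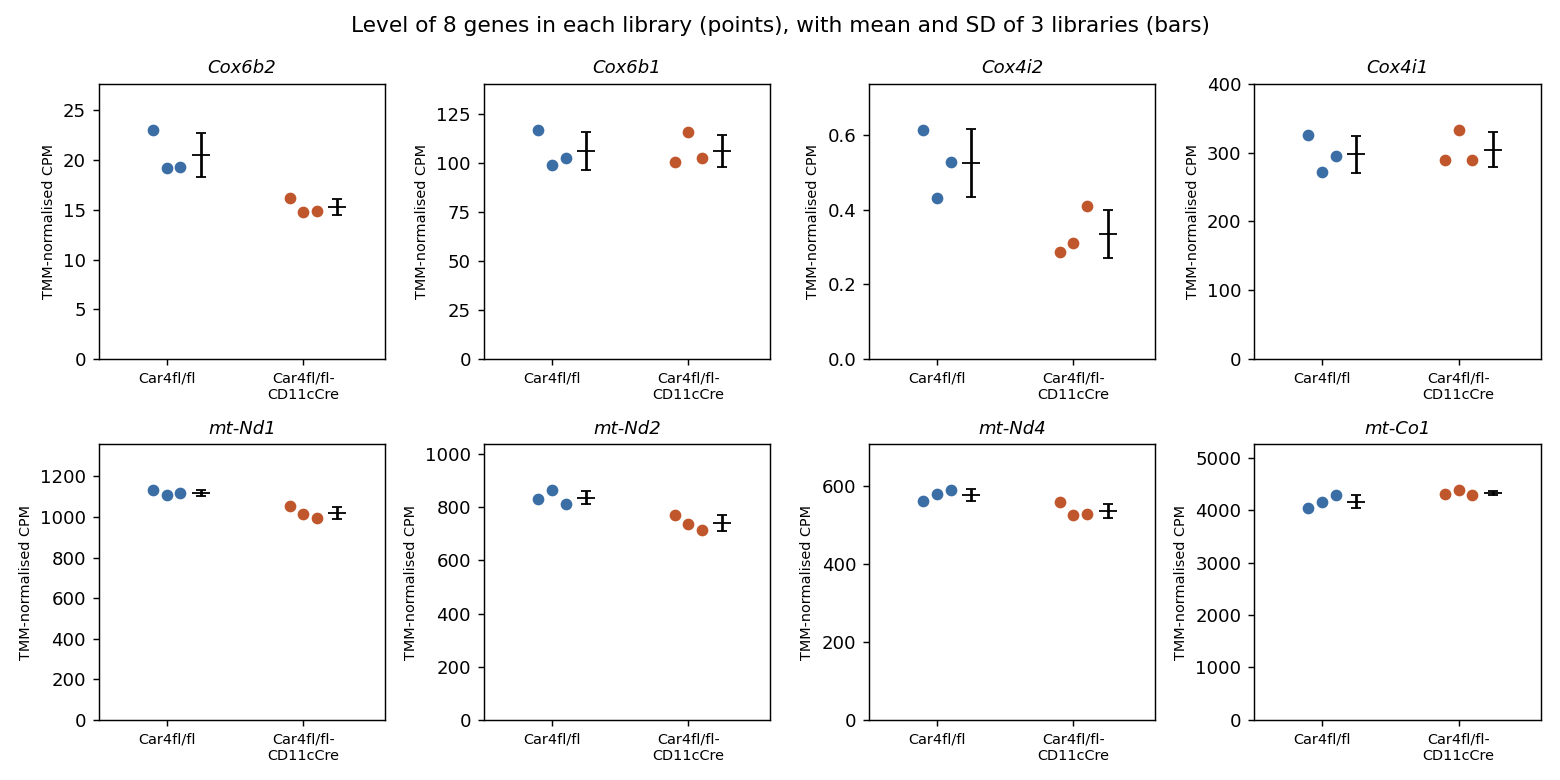
TMM-normalised CPM of 8 genes in each of 3 Car4fl/fl and 3 Car4fl/fl-CD11cCre libraries (points, axis from 0), with mean and SD beside them. The groups do not overlap for Cox6b2, Cox4i2, mt-Nd1, mt-Nd2, mt-Nd4 and mt-Co1, and overlap for the isoforms Cox6b1 and Cox4i1; mt-Co1 is the only one of the 8 with the Cre libraries above.

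The mitochondrially encoded members had 1 long gap. Along the mitochondrial genome mt-Nd1, mt-Nd2 and mt-Co1, and then mt-Nd4, mt-Nd5, mt-Nd6 and mt-Cytb, had between 8911 and 282807 counts per library. The 6 genes that lie next to each other between mt-Co1 and mt-Nd4 had almost none. These were mt-Co2 (chrM:7013-7696), mt-Atp8, mt-Atp6, mt-Co3, mt-Nd3 and mt-Nd4l (chrM:9877-10173), all on the plus strand. Of these, mt-Co3 had 1 count and mt-Nd3 16 over the 6 libraries, and the other 4 had none. Both genotypes were alike in this, and mt-Co2, mt-Co3 and mt-Atp6 encode core subunits of complexes IV and V that respiring cells need. Near-zero counts of these 6 genes are therefore given without a level.

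**Figure D3:**
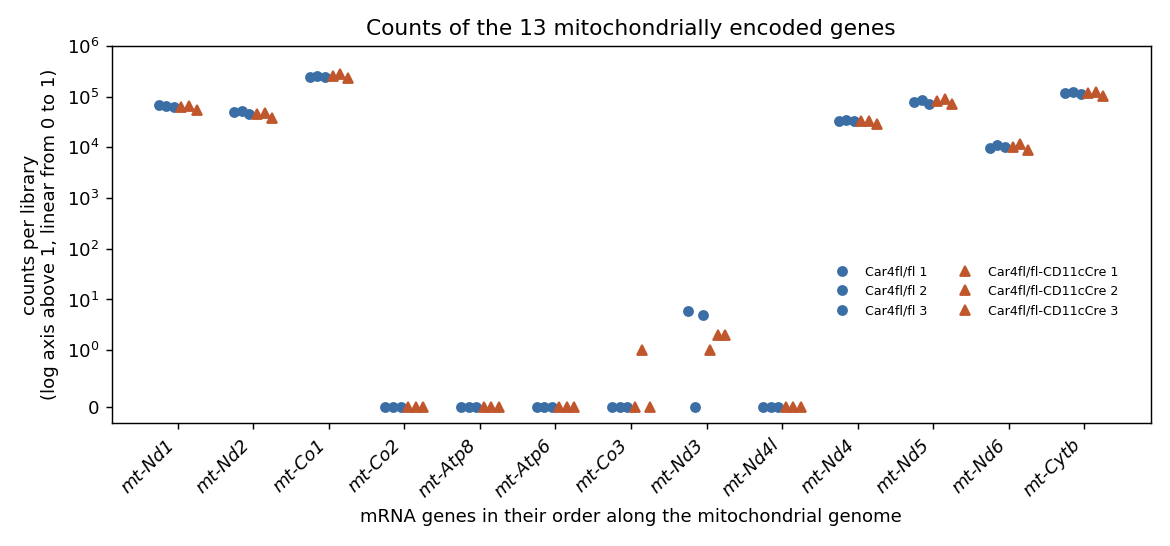
Counts in each of the 6 libraries for the 13 mitochondrially encoded mRNA genes, in their order along the mitochondrial genome, on an axis that is logarithmic above 1 and linear from 0 to 1. The 6 neighbouring genes from mt-Co2 to mt-Nd4l sit between 0 and 6 counts, and the 7 others between 8911 and 282807.

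The annotation places copies of this stretch in the nuclear genome, on chromosome 1. Gm28661 matches mt-Co2 over 681 bases, Gm10925 mt-Atp6 over 678, Gm28437 mt-Co3 over 783 and Gm10222 mt-Nd4l over 294, each at 100% identity. Gm28438 matches mt-Nd3 over 345 bases with 1 mismatch. The first 60 aligned bases of 2 of these pairs are shown because they differ at no base or at 1 base from the copy: GENCODE M21 transcripts on GRCm38, 5′ to 3′ along the transcript, with a differing base in capitals. mt-Co2 is from chrM:7013-7072 on the plus strand, Gm28661 from chr1:24615506-24615565 on the minus strand, mt-Nd3 from chrM:9459-9518 on the plus strand and Gm28438 from chr1:24613060-24613119 on the minus strand.
mt-Co2: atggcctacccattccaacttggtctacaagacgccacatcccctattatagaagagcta
Gm28661: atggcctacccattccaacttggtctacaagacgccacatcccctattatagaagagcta
mt-Nd3: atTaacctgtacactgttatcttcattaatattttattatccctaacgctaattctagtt
Gm28438: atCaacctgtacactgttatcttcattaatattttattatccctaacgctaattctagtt
The 60 bases of mt-Co2 had no mismatch to the copy, and those of mt-Nd3 had 1.

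Counts of the copies did not make up for the missing ones. Over the 6 libraries Gm28661 had 7 counts, Gm10925 had 8, Gm28437 had 36, Gm28438 had 4 and Gm10222 had 282, of which 277 were in 1 library, control 2. No copy of mt-Atp8 of the required length was annotated. mt-Nd4, which had 197152 counts, matched Gm28439 over 876 of its 1378 bases at 100% identity, and mt-Co1, with 1506145 counts, matched Gm29216 over 483 of 1545 bases. Values of mt-Nd4 and mt-Co1 can therefore lack reads from these parts. No source used here gives how reads that fit several places were counted, and its part in the near-zero counts was not tested.

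Of the 7 mitochondrial genes with counts, 3 of complex I were lower in all Cre libraries. Over all 90 tested members 5 were lower in this way, beside 9.23% of all tested genes. mt-Nd2 was at 832, 864 and 813 CPM in the controls and 772, 738 and 714 CPM in the Cre libraries, a log2 fold change of -0.17 ± 0.06 (SE) with an unadjusted p of 0.0177 and an adjusted p of 0.275 (edgeR). mt-Nd1 was at 1132, 1107 and 1117 CPM against 1053, 1017 and 993 CPM, a log2 fold change of -0.13 ± 0.05 (SE) with an adjusted p of 0.374 (edgeR). mt-Nd4 was at 559.6, 579 and 588 CPM against 557, 524 and 526 CPM, with an adjusted p of 0.492 (edgeR). In all 3 genes the highest Cre library stayed below the lowest control, by the smallest margin for mt-Nd4, and none passed the adjusted threshold.

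The other mitochondrial genes went either way. mt-Co1, a catalytic core subunit of complex IV, was at 4039, 4155 and 4283 CPM in the controls and 4306, 4380 and 4298 CPM in the Cre libraries (log2 fold change 0.06, adjusted p 0.775, edgeR), and the gap between the groups was smaller than the range within either. mt-Cytb, the core subunit of complex III, was at 1965, 2007 and 1984 CPM against 2023, 1905 and 1868 CPM, with overlapping groups. mt-Nd5 had a log2 fold change of 0.05 and mt-Nd6 of 0.00. mt-Nd6, the only mRNA gene of the minus strand and known to lack a poly(A) tail, was at 159 to 186 CPM. Its 3′ end overlaps that of mt-Nd5. With the strand setting of the counting not given, reads of either strand cannot be told apart anywhere along mt-Nd6, so its level is uncertain. All rows of the mitochondrial genome held 1.08 to 1.17% of the counts of a library, without separation of the groups.

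Levels were compared between genes per kb of merged exons, as means of the 6 libraries. mt-Co1 was at 2747 CPM per kb, mt-Cytb at 1712, mt-Nd1 at 1118, mt-Nd2 at 760.1 and mt-Nd5 at 738, above every nuclear member by this length and by that of the principal transcript. The library ranges of mt-Nd2 and mt-Nd5 overlapped, so these 2 are not ordered. mt-Nd4 was at 403 and mt-Nd6 at 334 CPM per kb, above all nuclear members by merged exons, but not by principal transcript length, where Atp5b reached 453 and Cox4i1 404 CPM per kb. The place of mt-Nd6 is uncertain, since its reads may stem from either strand. That of mt-Nd4 is uncertain too, since its counts were divided by all 1378 bases. They can lack reads from the 876 bases that match a copy, so its level can be too low. By merged exons the highest nuclear members were Atp5a1 at 222, Cox6a1 at 213, Atp5b at 205 and Cox4i1 at 194 CPM per kb.

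The median nuclear member was at 28.1 CPM per kb in complex I, 60.7 in complex II, 54.4 in complex III, 49.9 in complex IV and 42.1 in complex V. Complex I was the lowest by the principal transcript length too, at 54.0 CPM per kb against 86.2 to 102 in the others, and the order of the others changed with the length used. Within isoform sets of complex IV the order held by both lengths. By merged exons Cox6a1 at 213 CPM per kb stood above Cox6a2 at 1.53, Cox6b1 at 150.2 above Cox6b2 at 16.2, Cox4i1 at 194 above Cox4i2 at 0.545, and Cox7a2 at 59.7 above Cox7a1 at 4.48. The genes of subunit c of the ATP synthase, which make the same mature protein, were at 91.7 CPM per kb of merged exons for Atp5g3, 8.48 for Atp5g1 and 8.12 for Atp5g2. By principal transcript length they were at 280.3, 69.9 and 30.8 CPM per kb, so only the order held.

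Some low levels stood beside copies in the genome. A near-identical copy by the same measure was annotated for 16 nuclear members, with a median of 14.3 CPM per kb of merged exons against 40.4 in the 67 tested members without one, and of 37.8 against 74.1 by principal transcript length, which 63 of the 67 had. Ndufb4, the lowest nuclear member of complex I, was at 1.01 CPM per kb and had 695 counts over the 6 libraries; a processed pseudogene, Ndufb4c, matches it over 390 bases at 100% identity and had no counts. Atp5l at 1.49, Ndufab1 at 1.87 and Atp5g1 and Atp5g2 also had such copies, whereas Ndufb2 at 1.22 CPM per kb had none. These levels depended on the length: by principal transcripts Atp5l was at 17.6, Ndufab1 at 9.08, Ndufb2 at 15.1 and Ndufb4 at 2.00 CPM per kb. Levels of these 16 members are uncertain, and the part of the copies in them was not tested.

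**Figure D4:**
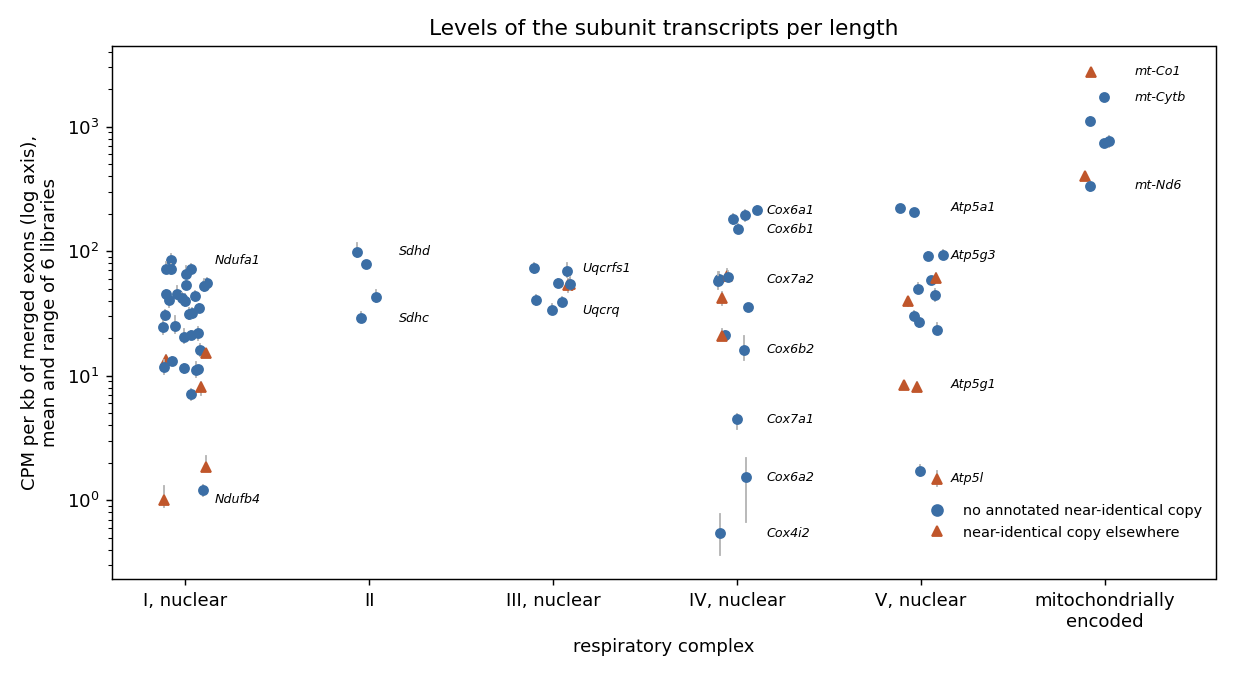
Mean CPM per kb of merged exons over 6 libraries (log axis) for tested nuclear members of each complex and the 7 mitochondrial genes, with the range of the libraries as a line and triangles for genes with an annotated near-identical copy. Mitochondrial genes lie between 334 and 2747, and the nuclear members between 0.545 and 222.

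Within each genotype the nuclear members moved together from library to library. Relative to the mean of the controls, on the scale of log2(CPM + 0.5), the median nuclear member was at 0.119, -0.087 and -0.034 in control libraries 1 to 3 and at -0.042, 0.124 and -0.043 in Cre libraries 1 to 3. Control library 1 was the highest of its group for 78 of 83 nuclear members, and Cre library 2 for 76 of 83, against 36.7% and 37.1% of all tested genes. All 5 complexes had this order of libraries at the top: in control library 1 and Cre library 2 the medians were 0.110 and 0.116 for complex I, 0.136 and 0.186 for complex II, 0.132 and 0.170 for complex III, 0.131 and 0.140 for complex IV and 0.102 and 0.102 for complex V. The libraries within a genotype thus differed by more than the genotypes did.

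The 7 mitochondrial genes did not share this order: control library 1 was highest for 1 of 7 and Cre library 2 for 3 of 7. Cytosolic ribosomal proteins did, with control library 1 highest for 93.9% and Cre library 2 for 96.3% of 82 tested genes, and so did mitochondrial ribosomal proteins, with 85.5% for both over 76 genes. Among tested genes no longer than the median nuclear member the shares were 39.7% and 41.4%. The summed share of counts in nuclear members was 0.746, 0.671 and 0.691% in the controls and 0.694, 0.743 and 0.685% in the Cre libraries. What sets these libraries apart was not tested.

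**Figure D5:**
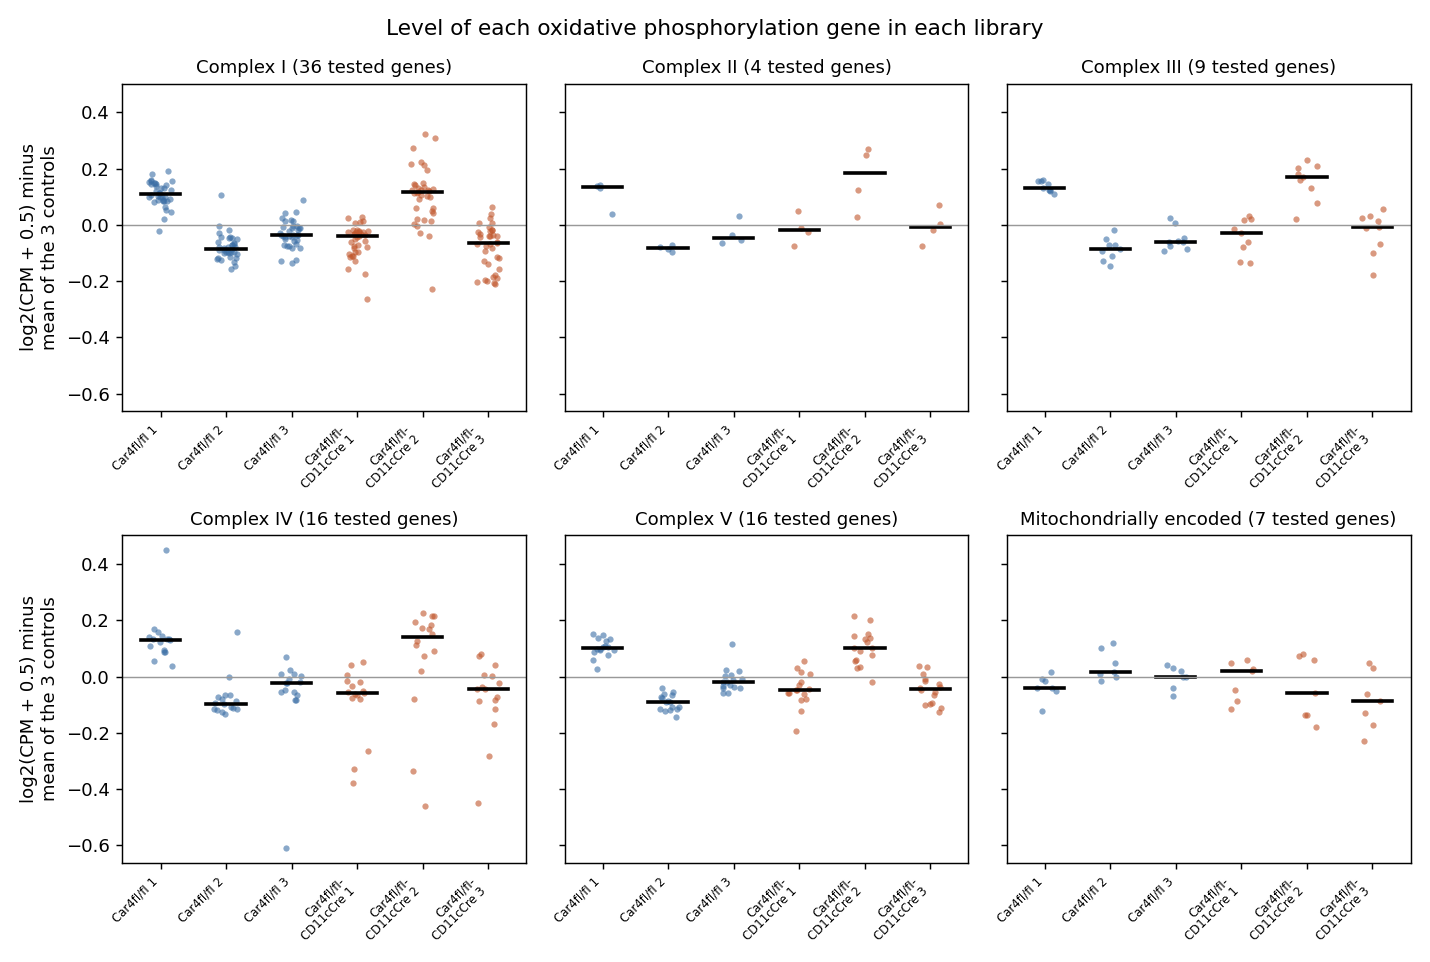
Level of each tested gene in each library as log2(CPM + 0.5) minus the mean of the 3 controls, by complex, with the median as a bar (blue Car4fl/fl, orange Car4fl/fl-CD11cCre). In all 5 nuclear panels control library 1 and Cre library 2 have the highest medians, between 0.102 and 0.186, and the panel of 7 mitochondrial genes does not.

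Since this shared shift adds to the spread within each group, values were also centred on the median nuclear member of each library, a choice made after seeing the data. The median SD over the 6 libraries fell from 0.105 to 0.0511 on the log2 scale for nuclear members, as the centring forces, and rose from 0.0752 to 0.133 for the mitochondrial genes. After centring, the Cre libraries lay above the controls for 7 of 83 nuclear members, Ndufa8, Sdhb, Sdhd, Uqcrb, Uqcrh, Cox5b and Cox7a2l, where 6.93% of all tested genes did so. They lay below for 5, Ndufa11, Ndufb7, Ndufs8, Cox4i2 and Cox6b2, where 5.59% did so. None of the 7 mitochondrial genes separated the groups after centring, mt-Nd1, mt-Nd2, mt-Nd4 and mt-Co1 included. The centred differences of these 4 were -0.14, -0.18, -0.11 and 0.05 in that order, close to their fold changes without centring. Centring adds to the mitochondrial genes a library shift that they did not share, so their lost separation is not read as a result. Apart from Cox4i2 and Cox6b2 the centred differences of the separated nuclear members lay between -0.16 and 0.11. The centred difference of Cox6b2 was -0.42, close to the fold change without centring.

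Other genes that serve the system were read from lists of assembly factors, regulators, coenzyme Q enzymes and ribosomal proteins. Of 268 tested genes none passed the adjusted threshold in edgeR or limma-voom, and DESeq2 and edgeR without the filter on low counts called 1 lower, Mrpl38. At an unadjusted p under 0.05 the list of complex I assembly had 1 higher and 1 lower of 17, that of complex IV assembly 1 and 1 of 23, coenzyme Q synthesis 0 and 2 of 13, and mitochondrial ribosomal proteins 0 and 1 of 76, beside 6.54% and 6.28% of all tested genes. The lists of complex II, III and V assembly, of respiratory gene regulators, of mitochondrial DNA expression and upkeep, of ADP, phosphate and proton passage and of cytosolic ribosomal proteins had 0 in either direction, over 4, 6, 3, 10, 25, 9 and 82 tested genes. Their median log2 fold changes lay between -0.030 and 0.055, the highest that of the cytosolic ribosomal proteins. Of these 71 of 82 were above 0, beside 7482 of all 15147 tested genes. The cytosolic ribosomal protein genes moved together from library to library, so they are not 82 separate observations.

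Among these genes Ndufaf7, a methyltransferase needed for assembly of complex I, was at 10.6 ± 1.29 (controls) against 8.48 ± 0.262 CPM (Cre libraries; SD, n = 3; log2 fold change -0.32, adjusted p 0.287, edgeR). Higd2a, an assembly factor of complex IV, was at 38.6 ± 2.39 against 33.5 ± 1.26 CPM (adjusted p 0.237, edgeR), and Coa5, another, at 125 ± 1.86 against 137 ± 7.41 CPM. Mrpl38, of the large subunit of the mitochondrial ribosome, was at 43.6 ± 3.39 against 34.6 ± 3.21 CPM (log2 fold change -0.33, adjusted p 0.185, edgeR). For Ndufaf7, Higd2a and Mrpl38 all Cre libraries lay below the controls, and for Coa5 above. Coq10b and Pdss1, which encode a coenzyme Q binding protein and a subunit of the enzyme that makes its side chain, were both lower at an unadjusted p under 0.05, with 54.0 ± 2.84 against 47.3 ± 3.63 CPM for Coq10b and 5.39 ± 0.472 against 4.36 ± 0.292 CPM for Pdss1.

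The transcription factors and coactivators known to drive nuclear respiratory genes did not separate by an unadjusted p. Gabpa, the DNA-binding subunit of NRF2/GABP, was at 68.7 ± 2.91 against 73.6 ± 1.83 CPM (SD, n = 3; adjusted p 0.467, edgeR), with all Cre libraries above the controls. Pprc1, a coactivator of the PGC1 family, was at 69.0 ± 6.01 against 63.4 ± 1.5 CPM. The mitochondrial RNA-binding genes Fastkd3 and Fastkd1 lay in opposite directions, 7.80 ± 0.263 against 6.55 ± 0.984 CPM for Fastkd3 and 11.2 ± 0.479 against 12.5 ± 1.05 CPM for Fastkd1, and did not pass either. Ucp2, the uncoupling protein gene of immune cells, was far above the other members of its list, at 2310.4 ± 128 against 2074 ± 115 CPM (adjusted p 0.425, edgeR).

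The promoters of the members were read for motifs to describe what the members share beyond the names that chose them. A link between motifs and the shared shift of libraries was not tested. RefSeq windows of 300 bases (GRCm38.p6, 250 before and 50 after the start site) were matched for 71 of the 100 symbols, in 77 windows. The motif of the transcription factor NRF1, spelled GCGCA, any base and GCGC and searched on both strands like the others, was found in 18 member windows, 23.4%, against 4.6% of all windows and 9.4% of windows of tested genes. AANATGGC, bound by YY1, was found in 24.7% of member windows against 6.05% and 8.16%. CCGGAAG, of the ETS family that includes GABPA, was found in 20.8% against 8.86% and 16.7%, and TATAAA, the TATA box, in 10.4% against 13.6% and 7.36%. None of the 4 strings contains another. A match describes letters only, and binding was not measured.

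Of 24 NRF1 matches in member windows 19 lay upstream of the start site, and 4 windows held more than 1. The promoters of Cox6a1 and Sdha, members with several matches, are shown beside that of Cox6b2, the member with the smallest p, in which this motif was not found in the stretch printed. Only 17 of the 71 matched member genes held the motif, so its absence does not set Cox6b2 apart from most members. Sequences are 5′ to 3′ along the gene, all on the minus strand of GRCm38.p6, with NRF1 motifs in capitals: Cox6a1 at chr5:115349059-115349128, Sdha at chr13:74350281-74350350 and Cox6b2 at chr7:4753095-4753244.
Cox6a1: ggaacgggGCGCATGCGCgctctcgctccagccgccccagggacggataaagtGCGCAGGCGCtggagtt
Sdha: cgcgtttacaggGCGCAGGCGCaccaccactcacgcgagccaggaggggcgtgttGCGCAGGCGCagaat
Cox6b2: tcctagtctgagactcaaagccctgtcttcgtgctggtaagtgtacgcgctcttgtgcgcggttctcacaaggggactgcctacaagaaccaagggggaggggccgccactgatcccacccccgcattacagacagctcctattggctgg
The first 2 stretches each hold the motif at 2 places.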

How the data were processed

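Polyadenylated RNA of sorted alveolar macrophages was sequenced from 3 Car4fl/fl and 3 Car4fl/fl-CD11cCre mice. The authors deposited whole-number counts per gene, without normalization, in 46078 rows. The submitters' processing notes name bcl2fastq 2.20.0.422, FastQC 0.11.8, cutadapt 2.5, STAR 2.6.1, Picard 2.21.1, SAMtools 1.9, featureCounts 1.6.4, StringTie 2.0, edgeR 3.26.5, DESeq2 1.22.1 and GRCm38, without roles. No source used here gives the annotation release, the strand setting or how reads that fit several places were counted.

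Counts were fitted with edgeR 4.0.16 under R 4.3.3, using filterByExpr (minimum count 10), TMM factors (0.986 to 1.015), glmQLFit and glmQLFTest without covariates, two-sided, with Benjamini-Hochberg adjustment over 15147 genes and a threshold of 0.05. The standard error was the size of the log2 fold change over the root of F, and 95% intervals used the t distribution of the fit. The fit had 3.79 prior degrees of freedom and a biological coefficient of variation of 14.4%. Medians per library used a pseudocount of 0.5 CPM. The members and gene lists were chosen with earlier results of these data known. Named genes were the mitochondrial members, the 3 most abundant per length and the 3 of smallest p among nuclear members of complexes I, III, IV and V, complex II, cytochrome c, isoform sets of complexes IV and V, and the 2 of smallest p in each other list; values of some of these are given only as ranges or counts, and other genes were named with their values in view. A gene that the rule names is not reported here.

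Exon lengths came from GENCODE M21 (GRCm38). Copies were sought with BLAST 2.17.0 among its transcripts (at least 98% identity over 150 bases), coding sequences were aligned with Biopython 1.88, and promoters were RefSeq windows. The fit was tested on simulated counts of this comparison over 15147 genes, 50 changed at each fold. There edgeR recovered 64% at 1.5-fold, 84% at 2-fold, 96% at 4-fold and 100% at 8-fold, with 15 false calls among 187. Changed genes were drawn above a minimum mean level, and genes varied independently of each other. A library shift shared by many genes, as in the nuclear members, was not simulated. Alternatives were DESeq2 1.42.0, limma-voom (limma 3.58.1), scaling by RLE, by upper quartiles or by library size, no filter, a filter of 5 CPM in 3 libraries, a block for the replicate number, and each library left out. Robust dispersions, newer glmQLFit settings, centring on nuclear members and principal transcript length were added after seeing the data. Figures were drawn with matplotlib 3.10.9.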

Additional observations from a re-analysis of the deposited data

How the results depend on the processing

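No member was called higher under any of the 16 alternatives fitted, and 1 was called lower by DESeq2 and by edgeR without the filter on low counts, Cox6b2 in both, against 0 in edgeR with the filter. Limma-voom, the other scalings, the stricter filter, the block, the robust and newer settings and each left-out library gave 0. Leaving out 1 library at a time, members at an unadjusted p under 0.05 numbered 0 to 1 higher and 2 to 3 lower. Members whose groups did not overlap numbered 1 to 15 with the Cre libraries above and 5 to 15 below, counts that can only rise with fewer libraries. The share of all tested genes without overlap was not computed for these sets of 5 libraries. The median log2 fold change then lay between -0.07 and 0.052 for complex I and between 0 and 0.113 for complex II. It lay between -0.027 and 0.113 for complex III and between -0.05 and 0.078 for complex IV. For complex V it was -0.049 to 0.062, and for the mitochondrial genes -0.08 to -0.015. Each shift was less than 1 SD between libraries. Leaving out 1 of 3 libraries cannot move a group mean by 1 SD, so this does not show stability. The cause of the shifts was not tested.

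No pairing of the samples by replicate number showed in the values, which cannot tell how the mice were handled. Deviations of same-numbered libraries correlated at -0.01, -0.156 and 0.069, and those of unlike numbers at -0.224 to 0.239. With the replicate number as a block, 2 members were lower at an unadjusted p under 0.05 against 3 without it, and 0 passed the adjusted threshold. The number of mice limits the precision, and Cox4i2 had at most 37 counts in a library.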

Other observations

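Among the nuclear copies of members, Gm10222, the copy of mt-Nd4l on chromosome 1, had 282 counts over the 6 libraries, 277 of them in control library 2. Gm10221, a processed pseudogene identical to Atp5l over 309 bases, had 51 counts over the 6 libraries and at most 24 in 1 library. Atp5l itself had 3413 counts and was at 9.61, 8.47 and 10.2 CPM in the controls and 8.89, 11 and 9.35 CPM in the Cre libraries.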
